A study of Homo sapiens with 4 samples.

Results

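Tubulin mRNA was examined for the 10 genes of the alpha and beta classes TUBA1A, TUBA1B, TUBA1C, TUBA4A, TUBB, TUBB2A, TUBB2B, TUBB3, TUBB4B and TUBB6. They were chosen by gene symbol, matched through the Ensembl identifier, and all 10 were found among the 58233 genes of the count table. Poly(A)-selected RNA was sequenced from MIA PaCa-2 and PANC-1, established human pancreatic cancer cell lines labelled wild type, after 24 h with cannabichromene (CBC, a plant cannabinoid) or with PBS. The CBC dose was 35 μM for MIA PaCa-2 and 30 μM for PANC-1 cells, as the methods give it, and the methods speak of a vehicle control where the labels name PBS. Each of the 4 conditions is 1 library with 21742775 to 27903667 counts on genes, so differences within a line rest on single libraries with no replicate, and the doses differ between the lines.

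Microtubules are polymers of alpha and beta tubulin dimers, which form the mitotic spindle in dividing cells and the tracks for kinesin and dynein motors. Several genes encode each class, and their products, called isotypes, differ mainly in the tail that reaches out from the microtubule wall and in the tissues that make them. TUBA1B, TUBA1C, TUBB and TUBB4B are widely expressed, TUBA1A and TUBB2B are prominent in developing neurons, and TUBB3 marks neurons but is also made by many cancers. Cells also adjust the stability of tubulin mRNA to the amount of free tubulin dimer, since the factor TTC5 recognizes the first residues of the nascent protein and brings the mRNA to the CCR4-NOT deadenylase.

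The first 12 coding bases of each gene are shown because they encode those first residues. Capitals mark bases unlike TUBA1B in the alpha genes and unlike TUBB in the beta genes, in the canonical transcripts of GENCODE 44 on GRCh38.
TUBA1A, TUBA1B and TUBA1C: atgcgtgagtgc
TUBA4A: atgcgtgaAtgc
TUBB and TUBB4B: atgagggaaatc
TUBB3 and TUBB6: atgagggaGatc
TUBB2A: atgCgCgaGatc
TUBB2B: atgCgTgaGatc
The 3 alpha genes of the cluster on chromosome 12 began with the same letters. Among the beta genes, TUBB2A and TUBB2B each differed from TUBB at 3 of these 12 bases. None of the marked bases changes an encoded residue. All the alpha genes encode Met-Arg-Glu-Cys here, and all the beta genes Met-Arg-Glu-Ile.

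The gene bodies are also alike, which bears on how reads were assigned. Across the 6 pairs of alpha genes, 84.4 to 97.2% of aligned coding bases were identical, and across the 15 pairs of beta genes 81.0 to 98.1%, against 55.1 to 58.1% between the classes. TUBB2A and TUBB2B, which lie near each other on chromosome 6, differed at 25 of 1338 coding bases, and TUBA1A and TUBA1B at 38 of 1356. The last 60 coding bases of TUBB2A and TUBB2B are shown because they encode the tail, where isotypes usually differ most. Capitals mark differences within the pair.
TUBB2A: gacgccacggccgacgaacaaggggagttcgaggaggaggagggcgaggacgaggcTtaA
TUBB2B: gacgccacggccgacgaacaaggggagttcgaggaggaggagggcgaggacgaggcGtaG
The TUBB2A and TUBB2B ends differed at 2 bases. These lie in an alanine codon and in the stop codon, so the stretch encodes the same residues in both genes. Reads were 100 bases long, so each transcript was also searched in windows of 100 bases for an exact copy in a transcript of another gene. Such windows made up 55.6% of TUBB2A, 48.7% of TUBB2B, 37.2% of TUBA1B, 21.2% of TUBA1A and 12.3% of TUBA1C. They were rare in TUBB with 5.42%, TUBB4B with 3.01% and TUBA4A with 1.95%, and TUBB6 had 0%. For TUBB3 the share was 92.5%, because the gene model ENSG00000198211 overlaps it on the same strand; that model is listed with 0 counts in all 4 libraries. Whether reads with several matches, or reads lying on overlapping gene models, were counted is not given in the sources used here. The levels of TUBB2A, TUBB2B, TUBB3 and the 3 alpha genes on chromosome 12 are therefore uncertain in this respect.

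On GRCh38, TUBA1B (chromosome 12, 49127782 to 49131397) and TUBA1A (49184686 to 49189080) are on the minus strand, and TUBA1C (49188736 to 49274600) is on the plus strand with its first bases opposite the start of TUBA1A. TUBB2A (3153497 to 3157544) and TUBB2B (3223324 to 3231730) are on the minus strand of chromosome 6, and TUBB (30717435 to 30725538) is on the plus strand of the same chromosome. TUBA4A is on chromosome 2 (219249710 to 219277902), TUBB3 on chromosome 16 (89921392 to 89938761), TUBB4B on chromosome 9 (137241287 to 137243707) and TUBB6 on chromosome 18 (12307669 to 12344320). The library kit keeps the strand, but whether the counting used it is not given in the sources used here. Reads of TUBA1A and TUBA1C in their overlap might therefore not be separated. The same doubt holds for TUBA4A, TUBB, TUBB2A, TUBB2B and TUBB6. Their spans overlap genes with counts on the opposite strand (STK16, MDC1, BPHL, PSMG4 and AFG3L2, in that order).

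At baseline, in PBS, TUBA1B and TUBB were the most abundant alpha and beta tubulin mRNA in both lines, while the minor isotypes TUBA1A, TUBA4A, TUBB2A and TUBB2B differed most between the lines. Levels between genes are given as CPM (counts scaled to library size) per kilobase of the canonical transcript, and levels of 1 gene between libraries as CPM, in both cases with library sizes scaled by the trimmed mean of M-values (TMM). Per kb, TUBA1B was at 833 in MIA PaCa-2 and 956 in PANC-1 cells, TUBA1C at 282 and 251, TUBA1A at 22.0 and 75.6, and TUBA4A at 0 and 5.13. This order of the alpha genes was the same in all 4 libraries. Among the beta genes, TUBB was at 813 CPM per kb in MIA PaCa-2 and 816 in PANC-1 cells, and TUBB4B at 552 and 358. TUBB2A stood above TUBB6 in MIA PaCa-2 cells, with 177 against 118 CPM per kb, and below it in PANC-1 cells, with 9.99 against 70.5. As counted, TUBB2B, at 27.5 and 4.28 CPM per kb, and TUBB3, at 4.64 and 3.27, were the lowest beta genes in both lines. In PANC-1 cells this pair was separated by little, and the TUBB3 level is uncertain because of the gene model that overlaps it. With 1 library per condition, the order of neighbours cannot be set against a spread between cultures.

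**Figure D1:**
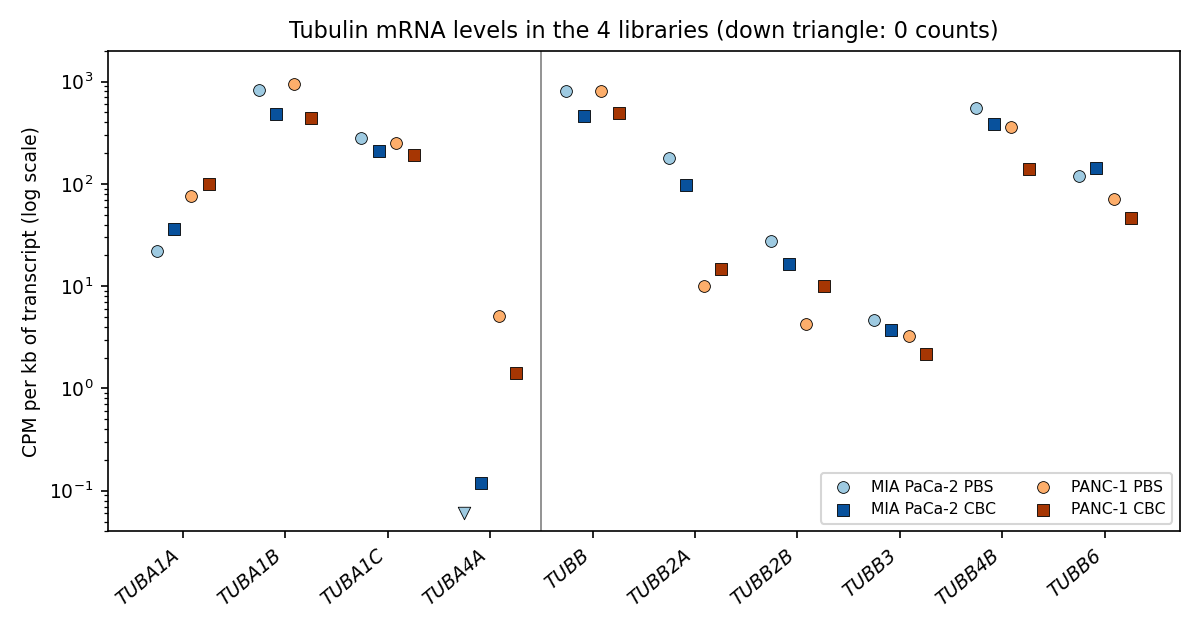
Level of each tubulin gene in CPM per kb of transcript on a log axis, with 1 point per library for MIA PaCa-2 (blue) and PANC-1 (orange) cells in PBS (circles) or CBC (squares). The alpha genes are left and the beta genes right of the grey line. TUBA1B and TUBB lead their classes in all 4 libraries, and TUBA4A has 0 counts in the MIA PaCa-2 PBS library (triangle, drawn at the foot of the axis).

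The neuron-associated alpha gene TUBA1A had 818 counts (36.8 CPM) in MIA PaCa-2 PBS and 2875 counts (126 CPM) in PANC-1 PBS. This was a log2 fold change of 1.78 for PANC-1 over MIA PaCa-2 cells, with a 95% counting interval from 1.67 to 1.89 (Clopper-Pearson). These intervals cover counting error only, not the variation between cultures. TUBA4A, an alpha isotype known from platelets and nerve, had 0 counts in MIA PaCa-2 PBS and 239 counts (10.5 CPM) in PANC-1 PBS. A count of 0 leaves room for up to 3 counts, 0.135 CPM in that library, and the PANC-1 level was 77.9 times this limit. The 95% counting interval of the ratio began at 62.9-fold.

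The beta genes of chromosome 6 ran the other way. TUBB2A had 6356 counts (286 CPM) in MIA PaCa-2 PBS and 367 counts (16.1 CPM) in PANC-1 PBS, a log2 fold change of -4.14 (-4.30 to -3.99). TUBB2B had 1176 counts (52.9 CPM) and 187 counts (8.22 CPM), a log2 fold change of -2.67 (-2.91 to -2.46). The major genes were close by comparison. TUBB had 45449 counts in MIA PaCa-2 and 46688 in PANC-1 cells, a log2 fold change of 0.01 whose counting interval, from -0.01 to 0.03, held 0. TUBA1B differed by 0.20 and TUBA1C by -0.17 on the log2 scale, and TUBB3, TUBB4B and TUBB6 by -0.50, -0.62 and -0.75. The median log2 difference of all 14805 tested genes was 0.10 with TMM and -0.03 with library totals, and with library totals the differences of TUBB, TUBA1B and TUBA1C were -0.13, 0.07 and -0.30.

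At the threshold of a log2 fold change of 1, 2 of the 10 genes were higher in PANC-1 PBS and 2 lower. Genes were tested where either library reached 1 CPM, and of these 24.0% were past the threshold as higher and 18.0% as lower. The median of the 10 genes was -0.33.

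The lines were also compared across both treatments with edgeR's quasi-likelihood test, with treatment as a covariate and Benjamini-Hochberg adjustment over 16381 genes. The fit has 1 residual degree of freedom, and its libraries are 4 cultures of 2 lines. It called 6 of the 10 tubulin genes, beside 46.7% of all genes. TUBA1A was higher in PANC-1 cells by 1.55 on the log2 scale (SE 0.22, adjusted p = 0.00106 from edgeR). TUBA4A was higher by 5.33 (SE 1.04, adjusted p = 0.00462 from edgeR), although this size rests on 6 counts in the MIA PaCa-2 libraries. Lower in PANC-1 cells were TUBB2A (log2 fold change -3.49, SE 0.35, adjusted p = 0.000213 from edgeR), TUBB6 (-1.24, SE 0.26, adjusted p = 0.00592), TUBB4B (-1.10, SE 0.23, adjusted p = 0.00682) and TUBB2B (-1.75, SE 0.45, adjusted p = 0.0147). TUBA1B, TUBA1C, TUBB and TUBB3 did not pass, with adjusted p from 0.172 to 0.983 in edgeR. Without treatment as a covariate, TUBB4B (adjusted p = 0.202) and TUBB2B (adjusted p = 0.063) were no longer called.

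After CBC, the abundant isotypes TUBA1B and TUBB fell across the lines, the neuron-associated TUBA1A was higher in both CBC libraries, and the pair TUBB2A and TUBB2B was lower in MIA PaCa-2 cells and higher in PANC-1 cells. Summed over the alpha genes, the MIA PaCa-2 level was 2189 CPM in PBS and 1424 CPM with CBC, and the PANC-1 level 2401 and 1431 CPM, log2 changes of -0.62 (-0.64 to -0.60) and -0.75 (-0.77 to -0.73). Summed over the beta genes, the levels were 3475 and 2222 CPM in MIA PaCa-2, and 2775 and 1598 CPM in PANC-1 cells, log2 changes of -0.65 (-0.66 to -0.63) and -0.80 (-0.81 to -0.78). Both classes were thus lower in each CBC library by similar amounts. Together the 10 genes held 0.579% of all counts in MIA PaCa-2 PBS and 0.39% with CBC, and 0.483% and 0.297% in PANC-1 cells. In bulk RNA, fewer cells of a kind and less RNA per cell cannot be told apart.

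TUBA1B had 30151 counts (1356 CPM) in MIA PaCa-2 PBS, 19202 (776 CPM) in MIA PaCa-2 CBC, 35368 (1555 CPM) in PANC-1 PBS and 19603 (717 CPM) in PANC-1 CBC. Both CBC libraries lay below both PBS libraries. In MIA PaCa-2 cells the log2 fold change was -0.80 (-0.83 to -0.78), and in PANC-1 cells it was -1.12 (-1.14 to -1.09). Over both lines TUBA1B fell by 0.95 on the log2 scale (SE 0.17, adjusted p = 0.0268, edgeR's quasi-likelihood test blocked by cell line, Benjamini-Hochberg adjustment), and it was lower in 2 of 2 lines.

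TUBB, the beta gene with the most counts, had 45449 (2044 CPM), 28706 (1161 CPM), 46688 (2053 CPM) and 34043 (1246 CPM) in the same order of libraries. The PBS libraries were nearly level and both CBC libraries lower. The log2 fold changes were -0.82 (-0.84 to -0.80) and -0.72 (-0.74 to -0.70), and over both lines TUBB fell by 0.76 (SE 0.15, adjusted p = 0.0361 in edgeR). TUBA1B and TUBB were the 2 tubulin genes of the 10 called for CBC, while 4.71% of the 16381 tested genes were called. Without the cell line as a block the test called 0 of the 10 and 0 of all genes, with 354 genes at an unadjusted p under 0.05. DESeq2 with the block called 3 of the 10, and over all 16381 genes it called 1296, against 771 in edgeR. With the block kept, TUBB was no longer called under a filter of at least 1 CPM in 2 libraries or with edgeR's newer quasi-likelihood fit (adjusted p = 0.0582 in each).

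TUBB4B, a widely expressed beta isotype that is also used in cilia, had 19175 (862 CPM), 14807 (599 CPM), 12720 (559 CPM) and 5964 counts (218 CPM). The PANC-1 CBC library was the lowest, and MIA PaCa-2 CBC still lay above PANC-1 PBS. Its log2 fold changes were -0.53 (-0.56 to -0.50) and -1.36 (-1.40 to -1.31), and over both lines its log2 fold change was -0.94 (SE 0.23, adjusted p = 0.0675 in edgeR, 0.0198 in DESeq2). TUBA1C, the other widely expressed alpha gene, had 17719 (797 CPM), 14524 (587 CPM), 16108 (708 CPM) and 14918 counts (546 CPM), with log2 fold changes of -0.44 (-0.47 to -0.41) and -0.38 (-0.41 to -0.34). These were smaller than those of TUBA1B in each line, and the test over both lines did not call it (adjusted p = 0.221 in edgeR).

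TUBA1A stood apart from the other alpha genes. It had 818 (36.8 CPM), 1501 (60.7 CPM), 2875 (126 CPM) and 4504 counts (165 CPM), so each CBC library was above the PBS library of its line. The log2 fold changes were 0.72 (0.60 to 0.85) in MIA PaCa-2 and 0.38 (0.31 to 0.45) in PANC-1 cells, and over both lines 0.56 (SE 0.22, adjusted p = 0.192 in edgeR). Per kb, TUBA1B exceeded TUBA1A by 37.9 times in MIA PaCa-2 PBS and 13.1 times with CBC, and by 12.6 and 4.47 times in PANC-1 cells. TUBA4A had 0, 6, 239 and 79 counts. In PANC-1 cells this was 10.5 CPM in PBS and 2.89 CPM with CBC, a log2 fold change of -1.83 (-2.25 to -1.49), and in MIA PaCa-2 cells it was below 1 CPM in both libraries and was not tested.

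**Figure D2:**
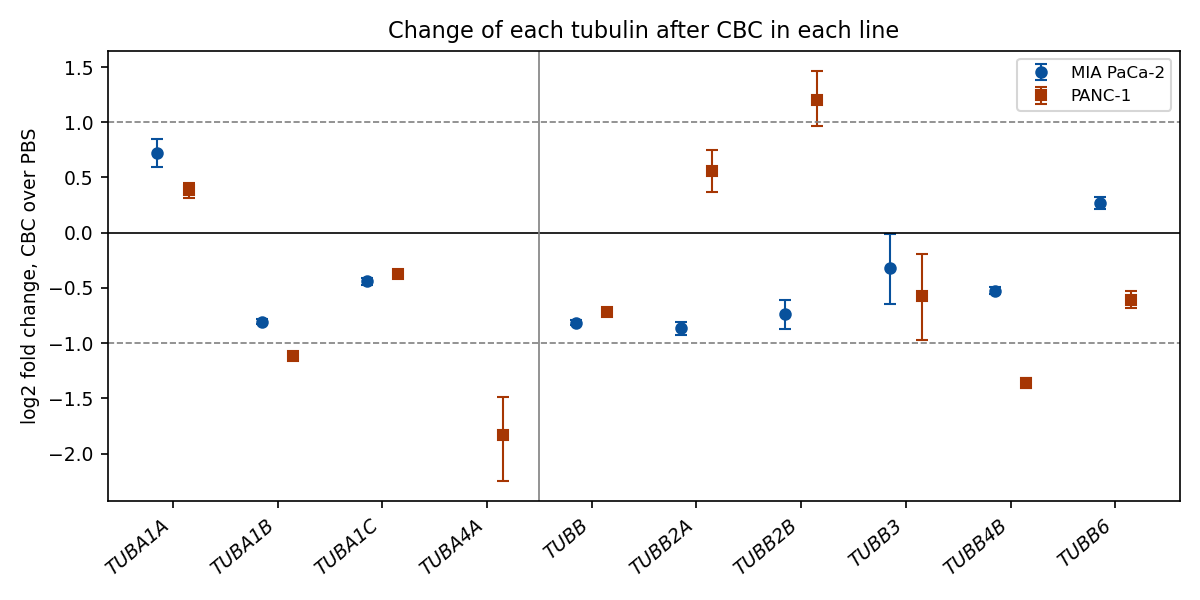
Log2 fold change of each tubulin gene, CBC over PBS, in MIA PaCa-2 (blue circles) and PANC-1 cells (red squares), with 95% counting intervals and dashed lines at a 2-fold change. TUBA1B, TUBA1C, TUBB, TUBB3 and TUBB4B lie below 0 in both lines, while TUBB2A, TUBB2B and TUBB6 lie on opposite sides. TUBA4A is drawn for PANC-1 only, since it was below 1 CPM in MIA PaCa-2 cells.

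Of the remaining beta genes, TUBB2A, TUBB2B and TUBB6 moved in opposite directions in the lines, while TUBB3 was lower with CBC in both. TUBB2A had 6356 (286 CPM), 3876 (157 CPM), 367 (16.1 CPM) and 650 counts (23.8 CPM), and its log2 fold change was -0.87 (-0.93 to -0.81) for MIA PaCa-2 and 0.56 (0.37 to 0.75) for PANC-1 cells. TUBB2B had 1176 (52.9 CPM), 782 (31.6 CPM), 187 (8.22 CPM) and 521 counts (19.1 CPM), with log2 fold changes of -0.74 (-0.87 to -0.61) and 1.20 (0.97 to 1.46). For both genes the CBC library was lower in the line with the high baseline and higher in the line with the low baseline. Because TUBB2A and TUBB2B share many windows of a read's length, their counts were also summed. The sum was 339 and 188 CPM in MIA PaCa-2 cells without and with CBC, a log2 fold change of -0.85, and 24.4 and 42.9 CPM in PANC-1 cells, a log2 fold change of 0.81. For the pair as a whole, the opposite directions thus did not depend on how counted reads were divided between TUBB2A and TUBB2B. Reads that were left out or given to other genes are not covered by the sum. In MIA PaCa-2 cells TUBB2A gave most of the sum, 6356 of 7532 counts in PBS and 3876 of 4658 with CBC. The sum therefore cannot settle the direction of TUBB2B alone. Per kb, TUBB2A exceeded TUBB2B by 6.43 and 5.9 times in MIA PaCa-2 PBS and CBC, and by 2.33 and 1.48 times in PANC-1 cells.

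TUBB6, a divergent beta isotype, had 4946 (222 CPM), 6638 (268 CPM), 3014 (133 CPM) and 2378 counts (87.0 CPM), with log2 fold changes of 0.27 (0.22 to 0.32) and -0.61 (-0.69 to -0.53). It was the 1 beta gene that was higher with CBC in MIA PaCa-2 and lower in PANC-1 cells. TUBB3, often followed as a marker of resistance to drugs that bind microtubules, had only 176, 156, 127 and 102 counts (7.91, 6.31, 5.59 and 3.73 CPM). Its log2 fold changes of -0.32 (-0.65 to -0.01) and -0.57 (-0.97 to -0.19) have wide counting intervals at these counts. Of its windows of 100 bases, 92.5% also occur in the overlapping gene model ENSG00000198211. Reads lying on both models may not have been counted, so the TUBB3 level could be understated, which was not tested. The test over both lines called none of TUBB2A, TUBB2B, TUBB3 and TUBB6, with adjusted p from 0.556 to 0.827 in edgeR, and for TUBA4A it was 0.647. A p of this kind does not show that a gene stayed the same in either line. For TUBB2A, TUBB2B and TUBB6 the test takes a mean over lines that moved opposite ways. Whether CBC acted differently in the lines could not be tested with 1 library per condition.

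Counted at a 2-fold change, 0 of the 9 tested tubulin genes were past the threshold in MIA PaCa-2 cells, where 11.5% of 14001 tested genes were higher and 8.97% lower. The median log2 fold change of the 9 genes was -0.53, with 2 above 0 and 7 below, while the median of all tested genes was -0.01. In PANC-1 cells 1 of 10 genes was past the threshold as higher (TUBB2B) and 3 as lower (TUBA1B, TUBA4A and TUBB4B), where 7.71% of 14091 tested genes were higher and 7.03% lower. The median of the 10 was -0.59, with 3 above 0 and 7 below, beside 0.02 for all tested genes. The counting interval of TUBB2B reached below a 2-fold change, and those of the other 3 lay wholly past it.

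These differences altered the make-up of each class. Per kb, TUBA1B made up 73.3% of alpha tubulin mRNA in MIA PaCa-2 PBS and 66.1% with CBC, and 74.2% and 60.04% in PANC-1 cells. The share of TUBA1A went from 1.93 to 5.03% in MIA PaCa-2 and from 5.87 to 13.4% in PANC-1 cells. TUBA1C went from 24.8 to 28.8% and from 19.5 to 26.3%. The alpha pool of both lines therefore held a smaller share of its main isotype in the CBC library. Without division by length, the TUBA1B share was 61.9 and 54.5% in MIA PaCa-2, and 64.8 and 50.1% in PANC-1 cells. The sizes of the shares thus depend on this step, and reads shared by TUBA1A, TUBA1B and TUBA1C add to the uncertainty. The beta pool did not show the same pattern in both lines. TUBB went from 48.0 to 41.8% of beta tubulin mRNA in MIA PaCa-2 cells but from 64.7 to 69.95% in PANC-1 cells. Without division by length these were 58.8 and 52.2%, and 74.0 and 78.0%. TUBB4B went from 32.6 to 34.7% and from 28.4 to 19.7%, and TUBB6 from 7.0 to 12.9% and from 5.59 to 6.54%. TUBB2A went from 10.5 to 8.78% in MIA PaCa-2 and from 0.791 to 2.08% in PANC-1 cells. TUBB6 and TUBB2A thereby changed places in the order of MIA PaCa-2 beta genes. TUBB2B went from 0.339 to 1.40% in PANC-1 cells, and from 1.63 to 1.49% in MIA PaCa-2 cells, and TUBB3 lay between 0.259 and 0.335% in the 4 libraries. The TUBB3 share is uncertain because of the gene model that overlaps it.

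**Figure D3:**
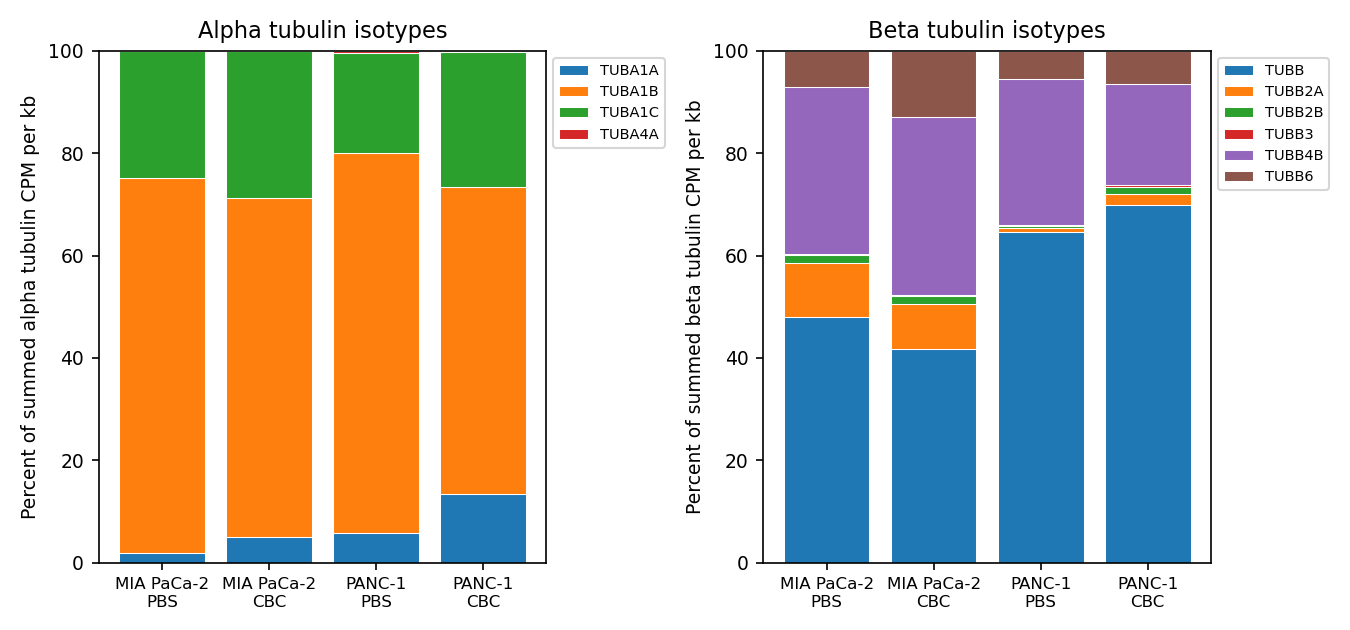
Share of each isotype in the summed CPM per kb of its class, in percent, for the 4 libraries, with alpha genes on the left and beta genes on the right. The TUBA1A share is larger in each CBC library than in the PBS library of its line (13.4% in PANC-1 CBC), and TUBB takes a larger share of the beta class in PANC-1 than in MIA PaCa-2 cells.

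Tubulin genes outside the 10 were followed as well. The gamma tubulin gene TUBG1 had 3468, 2765, 2784 and 1568 counts, with log2 fold changes of -0.48 and -1.09. TUBG2, also a gamma tubulin gene, had 1055, 1232, 629 and 685 counts, with log2 fold changes of 0.07 and -0.14. TUBB4A, a beta isotype best known from brain, had 1023, 468, 177 and 72 counts, with log2 fold changes of -1.28 and -1.53, and fell over both lines by 1.40 (SE 0.29, adjusted p = 0.037 in edgeR). TUBE1, the epsilon tubulin of centrioles, had 398, 947, 931 and 2276 counts, with log2 fold changes of 1.09 and 1.02, and rose over both lines by 1.07 (SE 0.23, adjusted p = 0.043 in edgeR). The delta tubulin gene TUBD1 had 408, 281, 279 and 169 counts (adjusted p = 0.187). Of the 12 other tubulin genes, 5 were tested, and 1 was called higher and 1 lower, beside 4.71% of all genes called. Of 15 alpha and 35 beta tubulin pseudogenes, 4 and 10 had any count, and they held at most 0.21% of the counts of their class in any library. TUBA5P, the 1 pseudogene with a mean of at least 1 CPM, had 82, 37, 16 and 6 counts.

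Promoters of 4 genes are shown because these genes moved in unlike ways after CBC or differed most between the lines. Each is the 250 bases before the RefSeq transcript start, from the GRCh38 table, read along the gene's strand. Capitals mark the letters CCAAT on either strand, the CCAAT box bound by the factor NF-Y.
TUBA1B, chr12:49131396-49131645, minus strand: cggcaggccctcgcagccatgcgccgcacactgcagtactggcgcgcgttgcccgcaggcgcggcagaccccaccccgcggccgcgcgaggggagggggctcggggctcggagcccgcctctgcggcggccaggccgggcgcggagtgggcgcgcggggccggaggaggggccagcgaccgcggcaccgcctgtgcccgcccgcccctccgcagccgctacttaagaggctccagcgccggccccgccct
TUBA1A, chr12:49189081-49189330, minus strand: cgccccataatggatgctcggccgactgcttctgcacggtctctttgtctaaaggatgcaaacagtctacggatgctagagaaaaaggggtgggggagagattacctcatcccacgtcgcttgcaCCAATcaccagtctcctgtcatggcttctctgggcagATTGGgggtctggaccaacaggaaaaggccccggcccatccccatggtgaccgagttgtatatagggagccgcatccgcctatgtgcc
TUBB4B, chr9:137241037-137241286, plus strand: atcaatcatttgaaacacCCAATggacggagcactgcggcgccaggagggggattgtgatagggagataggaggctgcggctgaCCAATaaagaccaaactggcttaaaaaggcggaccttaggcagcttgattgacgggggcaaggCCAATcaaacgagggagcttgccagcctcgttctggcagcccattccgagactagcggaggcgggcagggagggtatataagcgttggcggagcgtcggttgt
TUBB2A, chr6:3157545-3157794, minus strand: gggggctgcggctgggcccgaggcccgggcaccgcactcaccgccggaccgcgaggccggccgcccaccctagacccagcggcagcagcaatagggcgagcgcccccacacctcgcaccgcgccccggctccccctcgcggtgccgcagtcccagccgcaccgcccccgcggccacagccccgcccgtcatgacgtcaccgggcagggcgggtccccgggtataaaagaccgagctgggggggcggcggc
TUBB4B held 3 matches and TUBA1A 2, while TUBA1B and TUBB2A held 0. All 10 genes had at least 1 promoter in that table, 15 in all, and 7 of the 10 genes held a match, beside 37.0% of the 27305 genes in the table. Other motifs searched on both strands were TATAAA, found in TUBB2A (13.0% of all genes), and TGACGTCA, the cyclic AMP response element, also found in TUBB2A (2.0%). The cell cycle homology element TTTGAA was found in TUBA1C and TUBB4B (16.1%), and its variant TTTAAA in 0 of the 10 (13.5%). GGGCGG was found in 8 of the 10 (46.2%), and TGATGNAAT, the element of ATF4 with its partner, in 0 of the 10 (1.1%). Matches of different motifs did not overlap. A match is a description of letters, and genes with and without CCAAT were found among those lower with CBC.

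The machinery that makes, folds and uses tubulin was followed in lists of genes. None of the 23 genes for folding chaperones (the CCT complex, prefoldin and tubulin cofactors) was past 2-fold in either line, and their median log2 fold change was -0.20 in MIA PaCa-2 and -0.21 in PANC-1 cells. Of all tested genes, 11.5% were past 2-fold as higher and 8.97% as lower in MIA PaCa-2 cells, and 7.71% and 7.03% in PANC-1 cells. By mean absolute change over the lines, the first of them were PFDN2, a prefoldin subunit, with 1725, 2899, 2119 and 5004 counts (adjusted p = 0.0798 in edgeR), TBCD (adjusted p = 0.126) and CCT3 (adjusted p = 0.147). Of the 12 genes of the mRNA autoregulation route, 0 were past 2-fold in either line, with medians of -0.14 and -0.23. TTC5 itself had 382, 225, 395 and 617 counts, log2 fold changes of -0.91 and 0.38, and SCAPER, its adaptor to CCR4-NOT, had 226, 155, 567 and 521 counts. TTC5 was thus lower with CBC in MIA PaCa-2 and higher in PANC-1 cells. The test over both lines called 0 genes of either list, beside 4.71% of all genes. The adjusted p was 0.747 for TTC5 and 0.352 for SCAPER in edgeR.

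Enzymes that modify tubulin (18 genes tested over both lines) gave 0 calls, with medians of -0.16 and 0.11. In MIA PaCa-2 cells 3 of 17 were past 2-fold as lower (VASH1, VASH2 and MATCAP1), and in PANC-1 cells 0 of 18 were past it. For comparison, 8.97% of all tested genes were lower by that much for MIA PaCa-2. The PANC-1 shares were 7.03% lower and 7.71% higher. The enzyme gene TTLL12 had 4490, 2774, 1192 and 861 counts (adjusted p = 0.0762 in edgeR). Of 22 genes for nucleation by the gamma tubulin ring and augmin, 2 were called lower, beside 4.71% of all genes called in either direction, among them HAUS5 with 2827, 1125, 1052 and 710 counts (adjusted p = 0.0415 in edgeR). The medians of this list were -0.41 and -0.50. Stabilizers and plus-end factors gave 1 call of 22, which is near the 4.71% of all genes called. The gene was PRC1, which bundles microtubules in the midzone of dividing cells. It had 4234, 2376, 9477 and 4885 counts and was lower with CBC (adjusted p = 0.0254 in edgeR). MAP1B, the neuronal stabilizer, had 16, 387, 12773 and 28686 counts, and was not called (adjusted p = 0.11). Destabilizers and severing enzymes gave 3 lower calls of 17, beside the same 4.71% of all genes, among them KIF18B with 3688, 1744, 1932 and 748 counts (adjusted p = 0.0188) and FIGNL1 with 1093, 494, 2337 and 1313 counts (adjusted p = 0.0293 in edgeR).

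Motors were followed in 2 lists, and the difference between the lists was not tested. Of 32 interphase kinesin and dynein genes, 0 were called over both lines, and their medians were 0.08 in MIA PaCa-2 and 0.20 in PANC-1 cells. Past 2-fold as higher were 2 of 31 in MIA PaCa-2 cells, KIF1A (1.84 on the log2 scale) and KLC4 (1.54), and 1 of 32 in PANC-1 cells, KIF13B (1.39), and 0 were past it as lower in either line. Of all tested genes 11.5% were past it as higher in MIA PaCa-2 and 7.71% in PANC-1 cells. KIF1A, which carries vesicles along axons, had 1381, 5521, 6558 and 11790 counts (adjusted p = 0.0695 in edgeR). Of the 10 mitotic kinesins, 7 were past 2-fold as lower in MIA PaCa-2 and 9 in PANC-1 cells, and their medians were -1.15 and -1.32. Of all tested genes 8.97% and 7.03% were past it as lower. Over both lines 9 of the 10 were called lower, beside 4.71% of all genes called. KIF20A, a kinesin of cytokinesis, had 4231, 1325, 2770 and 1153 counts (log2 fold change -1.67, SE 0.21, adjusted p = 0.0119 in edgeR). KIF11, which pushes spindle poles apart, had 3937, 1720, 7061 and 2661 counts (adjusted p = 0.0144), and KIF20B had 2954, 1144, 5658 and 2558 counts (adjusted p = 0.0144 in edgeR). The median log2 fold changes of the tested alpha and beta tubulin genes lay between those of the folding chaperones and those of the mitotic kinesins in both lines. The medians of the other tubulins, the nucleation genes and the destabilizers did so too, so this place is not particular to the alpha and beta tubulins. The part of cell division in the tubulin values was not tested.

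**Figure D4:**
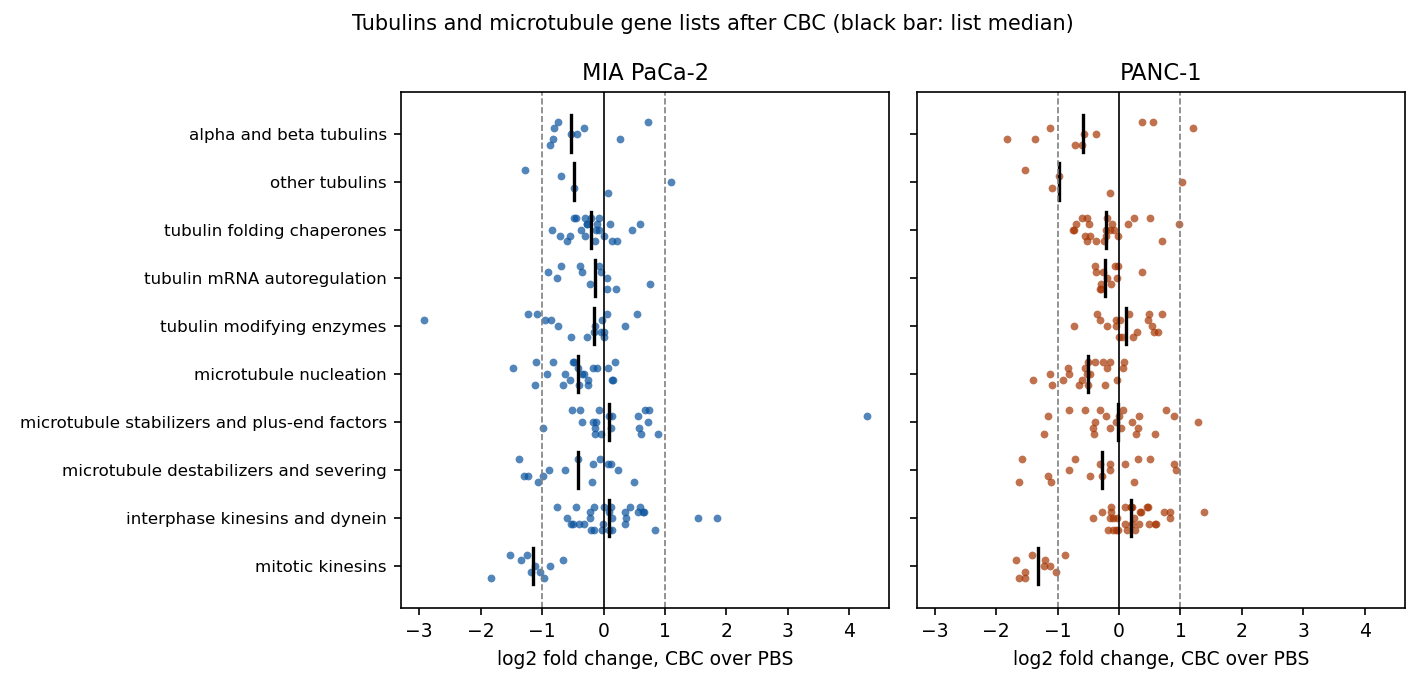
Log2 fold change after CBC of each tested gene of the alpha and beta tubulins and of 9 lists of microtubule genes, in MIA PaCa-2 (left) and PANC-1 cells (right), on the same axis. Each point is a gene, black bars are list medians and dashed lines a 2-fold change; the mitotic kinesins have the lowest medians (-1.15 and -1.32), and 0 of the folding chaperones lie past a dashed line.

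The genes whose pattern over the 4 libraries was nearest to TUBB, by Euclidean distance of centred log2 CPM among 10050 genes, were NUP85 (distance 0.028), FANCC (0.075) and TFAM (0.079). NUP85, a nuclear pore gene, had 2158, 1364, 2238 and 1582 counts. Nearest to TUBA1B were STIL (0.096), TAGLN2 (0.12) and TOPBP1 (0.12), and STIL, a centriole duplication gene, had 2517, 1674, 2830 and 1658 counts. With 4 libraries many genes can lie this near, and the distances are a description.

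The labelled identity of the cells was compared with markers. All 8 epithelial markers reached 1 CPM in PANC-1 cells and 5 to 6 in MIA PaCa-2 cells, in which EPCAM had 0 and 1 counts and CDH1 0, while KRT8 and KRT18 were at 276 to 1800 CPM in all libraries. The mesenchymal VIM was at 3250 to 4360 CPM. Of the 7 markers of other cell types, PTPRC, PECAM1, CPA1, INS and GCG were at 0 in all libraries, PRSS1 had 1 count in 1 library, and COL1A1, a fibroblast collagen, was at 134 CPM in PANC-1 PBS and 46.4 CPM in PANC-1 CBC. Of 10 neuronal and neuroendocrine markers, SYP and ENO2 reached 1 CPM in each library, and the sum of the list was 73.5, 138, 66.5 and 91.8 CPM in the order of libraries used above. Nearly all of the sum was ENO2 (61.7, 115, 47.3 and 68.7 CPM) and SYP (11.6, 22.5, 19.0 and 23.0 CPM), which like TUBA1A were higher in the CBC library of each line. Like TUBA1A, neither was called for CBC over both lines (adjusted p = 0.116 for ENO2 and 0.288 for SYP in edgeR). Other tubulins of neurons or brain differed. TUBB3 (log2 fold changes -0.32 and -0.57) and TUBB4A (-1.28 and -1.53) were lower in both lines. TUBB2B was lower in MIA PaCa-2 and higher in PANC-1 cells. ELAVL3 had 6, 22, 3 and 1 counts, CHGA and INA had at most 2 in any library, and NEFL, NEFM, STMN2, DCX and ELAVL4 were at 0 in all 4. The part of such genes in the TUBA1A values was not tested.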

How the data were processed

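The authors used cutadapt 2.7 for trimming, STAR for alignment to GRCh38 and HTSeq for counts per gene of Ensembl release 89, and the deposited counts are unfiltered. They also deposited a signal per library, a CPM on TMM-scaled library sizes, which matched the counts within a relative difference of 6.84e-09. Log2 fold changes were computed with edgeR 4.0.16 (in R 4.3.3, with TMM factors from all 4 libraries and a prior count of 2), for genes at 1 CPM or more in either library compared. Intervals of the count ratio are 95% Clopper-Pearson (scipy 1.17.1), and the limit for a count of 0 is 3 counts, 0.11 to 0.135 CPM. CBC was tested with edgeR's quasi-likelihood test and the cell line as a block, on genes kept by edgeR's filter, with Benjamini-Hochberg adjustment and a threshold of 0.05. The line pairs the libraries, and the paired deviations had a correlation of 0.923 across genes. The script was tested on simulated data.

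Positions, lengths and transcripts came from GENCODE 44, not release 89, and promoters from RefSeq on GRCh38. The tubulin genes and gene lists were chosen with earlier results of these data known. The text names the 10 genes, up to 3 genes per list, ranked by mean absolute change among those with a mean of 10 CPM or more, pseudogenes with a mean of at least 1 CPM, and the 3 genes nearest to TUBA1B and to TUBB. TUBG1, TUBG2, VASH1 and VASH2 are also named and lie outside this ranking. Markers are named for the cell type they mark. Alternatives changed scaling, filters, prior count, tool (DESeq2 1.42.0) and block.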

Additional observations from a re-analysis of the deposited data

Results flagged for a closer look

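For 4 genes the CBC library lay on opposite sides of the PBS library in the 2 lines, and the difference was not tested, since each condition has 1 library. As PANC-1 minus MIA PaCa-2, the log2 fold changes differed by 1.42 for TUBB2A, 1.95 for TUBB2B, -0.878 for TUBB6 and -3.81 for TUBA4A. The value for TUBA4A rests on 0 and 6 counts in MIA PaCa-2 cells, below the level at which a gene was tested there. Its MIA PaCa-2 log2 fold change ran from 0.313 to 3.67 over the alternatives, so the difference is no exact value. TUBB2A and TUBB2B share many windows of a read's length and are not independent of each other.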

How the results depend on the processing

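No value changed direction among those called. In MIA PaCa-2 cells, 1 gene (TUBA4A) was past 2-fold with no filter on low counts, against 0. For CBC over both lines, the test called 1 gene with a filter of at least 1 CPM in 2 libraries, 1 with edgeR's newer quasi-likelihood fit (added after seeing the data) and 0 with no replicate block, against 2. In the first pair of settings TUBB had an adjusted p of 0.0582, and over all alternatives the adjusted p of TUBA1B ran from 6.37e-07 to 1.0 and that of TUBB from 3.22e-05 to 1.0, both highest without the block. Over all genes, 2063 were called with every gene that had a count, 1296 with DESeq2 and 423 with the filter of 1 CPM, against 771; between the lines, 4251 were called with no replicate block (treatment left out), against 7652. With library totals the summed alpha change was -0.555 in MIA PaCa-2 and -0.677 in PANC-1 cells, and the summed beta change -0.58 and -0.727; with TMM within each line they were -0.775 and -0.826 in PANC-1 cells. Causes were not tested. Leaving out a library leaves no residual degree of freedom and was not run. For CBC, the block decided the calls of TUBA1B and TUBB and of none of the other genes among the 10. Low counts limit TUBA4A, TUBB3 and TUBB2B, whose counting intervals are wide, and with the interval required to lie wholly past 2-fold, 3 genes in place of 4 were past it in PANC-1 cells.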
